A study of Mus musculus with 4 samples.

Results

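The Th2 cytokine region of mouse chromosome 11 was examined through 10 genes, *Kif3a*, *Il4*, *Il13*, *Rad50*, *Il5*, *Irf1*, *Slc22a5*, *Slc22a4*, *Pdlim4* and *P4ha2*, out of 55367 gene symbols in the count tables. The genes were matched by symbol, and the set was chosen on earlier results of these libraries in which *Pdlim4* was among the transcripts that differed between genotypes. For the 10 genes the fold changes, their intervals and the edgeR calls are therefore a description of the values that chose the set, with no p given, and nothing is supported with them. RNA-seq was done on sorted peripheral CD4+ T cells from the spleen of C57BL/6 mice, with 2 libraries of the wild-type label (WT) and 2 of the conditional knockout of *Satb1* (cKO). The comparison asks what the loss of SATB1, an organiser of chromatin in T lymphocytes, does to the transcripts of mature CD4+ T cells. In the study's design floxed *Satb1* alleles (*Satb1* F/F) are paired with *Thpok-cre*, which is active from CD4 lineage commitment, or with *E8I-cre*, and its methods use *Thpok-cre* for CD4+ T cells. The study's methods describe adult mice of mixed sexes unless specified otherwise, with an average age range for all mice and not by library. The sample labels give the genotype without naming the Cre line, and they give no age, sex or treatment. They mark the libraries as replicates, and the study's methods treat a plotted replicate as a mouse analysed on its own unless specified otherwise. The tests below measure the spread between these libraries.

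*Il4*, *Il13* and *Il5* encode the cytokines that define type 2 helper (Th2) cells and drive antibody class switching, mucus and eosinophil responses. They lie close together, on either side of *Rad50*, and are known to be switched on as a unit after CD4+ T cells are polarised by IL-4 through STAT6 and GATA3. Folding of this region by SATB1 in activated Th2 cells is a textbook example of chromatin looping. The neighbouring genes encode proteins of other kinds, among them a DNA repair factor, transporters and a transcription factor of the interferon response.

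The libraries held between 4495902 and 6555699 gene counts, and between 19068 and 19979 genes had a count. Levels are given as CPM, a count divided by its library's total gene count and by an edgeR TMM scaling factor and multiplied by 1e+06. A single library with 3 counts or fewer was treated as at the floor, which was 0.458 to 0.667 CPM before the TMM factor. Levels pooled over the libraries also leave out the TMM factor. *Satb1* itself had 5677 and 4390 counts in WT and 4958 and 3986 in cKO, so the genotypes overlapped and this gene's total count did not separate the labels (log2 fold change -0.05 ± 0.12 SE, edgeR adjusted p = 0.877). Exon-level reads were not analysed here, and gene counts do not show whether a deleted exon was lost. *Cd4* averaged 1267 and 1226 CPM and *Cd3e* 803 and 873 CPM in WT and cKO, against 5.90 and 5.53 CPM for *Cd8a*, so the markers of CD4+ T cells were present in both genotypes. Of 8 CD4 T cell markers, with sums of 5093 to 5129 CPM in WT and 5165 to 5522 CPM in cKO, 1 was called, *Zbtb7b*, the gene of ThPOK, which rose from 215 to 340 CPM, a call that was lost without WT 2 (edgeR adjusted p = 0.236). *Xist*, transcribed from the inactive X chromosome, had 5447 and 4235 counts in WT and 9 and 6 in cKO, and the Y-linked *Ddx3y* had 0 and 0 counts in WT and 525 and 597 in cKO. This sex-linked pattern split the libraries as genotype did, so that the 2 cannot be told apart for any gene below.

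Across all genes, 533 of 12403 tested (4.3%) were called at an adjusted p under 0.05 by edgeR, 291 higher in cKO (2.35%) and 242 lower (1.95%). Of the 10 genes of the region, 5 passed the low-count filter, and 1 of these, *Pdlim4*, was called, as lower in cKO, with 0 called higher. The genotypes did not overlap in any of the 5, which was also the case for 50.3% of all genes tested. Since the set was chosen on this contrast, nothing is read from these counts. Among the others, *Il4*, *Il13*, *Il5* and *Slc22a4* had 3 counts or fewer in every library, and *P4ha2* was above that floor in 3 of the 4 libraries but did not pass the filter. The median log2 fold change was 0.19 over the 5 genes that passed and -0.0015 over all genes tested.

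**Figure D1:**
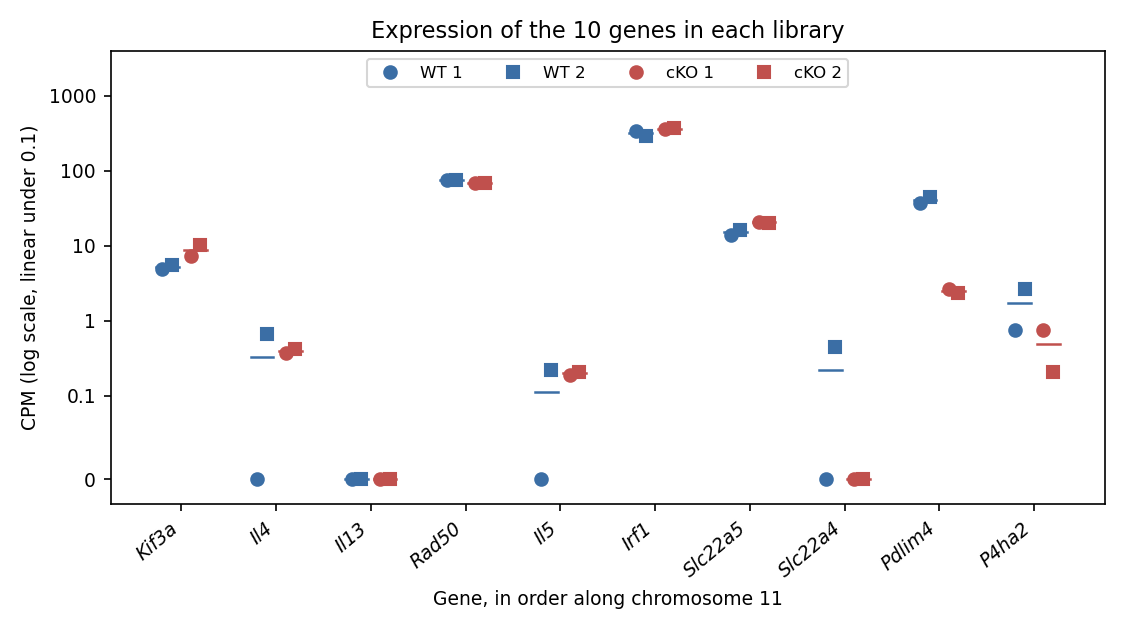
Expression in CPM (vertical axis, log scale that is linear under 0.1) of the 10 genes in their order along chromosome 11, with a point for each library, WT in blue and cKO in red, and a bar at the mean of each genotype. *Irf1* sits highest in all libraries, *Pdlim4* drops from 37.3 and 45.3 CPM in WT to 2.66 and 2.33 CPM in cKO, and *Il13* is at 0 throughout.

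The 3 cytokine genes were nearly silent in both genotypes. *Il4* (ENSMUSG00000000869.12, GRCm38 chr11:53602982-53618669, minus strand) had 0 and 3 counts in WT and 2 and 2 in cKO. Pooled over the libraries this was 0.333 CPM, with an exact Poisson 95% interval of 0.134 to 0.685 that covers counting error only. The genotypes overlapped, and no library was above the floor.

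*Il13* (ENSMUSG00000020383.1, chr11:53631324-53634702, minus strand), 12.7 kb from *Il4*, had 0 counts in all 4 libraries, which allows a level of up to 0.143 CPM when 3 counts are taken as the limit over all libraries. *Il5* (ENSMUSG00000036117.2, chr11:53720794-53725106, plus strand), 13.5 kb beyond *Rad50*, had 0 and 1 counts in WT and 1 and 1 in cKO. The antisense gene *Gm12214* covers 27.1% of the exonic bases of *Il5*, and the strand setting of the counting is not stated, so even these reads may belong to either gene. Together the cytokine genes gave 10 of 21052487 gene counts, with 0 and 4 in WT and 3 and 3 in cKO. A difference between genotypes was not detectable at this depth. The labels name no stimulation or Th2 polarisation of the cells, so levels in Th2 cells are not addressed.

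Basophils, mast cells and eosinophils also make these cytokines. Of 8 basophil and mast cell markers, 6 were at or under the floor in every library and *Fcer1a* was at 0, and their summed level was 2.45 to 2.74 CPM in WT and 2.12 to 3.04 CPM in cKO. Of 4 eosinophil markers, *Siglecf* and *Epx* were at 0, and the sum was 1.34 to 2.13 CPM in WT and 1.71 to 2.75 CPM in cKO.

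*Rad50* (ENSMUSG00000020380.16, chr11:53649519-53707319, minus strand), whose product joins MRE11 and NBN in sensing DNA double-strand breaks, spans the interval between *Il13* and *Il5* and holds the locus control region of the cytokine genes. It had 492 and 342 counts in WT and 359 and 323 in cKO, or 74.9, 76.3, 68.1 and 68.4 CPM. Both cKO libraries were a little lower than both WT libraries, with means of 75.6 ± 0.967 and 68.2 ± 0.174 CPM (SD, n = 2 each). The log2 fold change was -0.15 ± 0.11 (SE), and it lay between -0.15 and -0.14 when any one library was left out.

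*Kif3a* (ENSMUSG00000018395.19, chr11:53567379-53601967, plus strand) encodes a motor subunit of kinesin-2, which carries cargo in cilia, and borders the cytokine genes on the *Il4* side. It had 32 and 25 counts in WT and 39 and 48 in cKO, or 4.87 and 5.58 against 7.40 and 10.2 CPM. The cKO libraries were the higher ones without overlap, and the log2 fold change of 0.75 ± 0.30 (SE) ranged from 0.51 to 0.97 over the fits that dropped 1 library. It was not called.

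*Irf1* (ENSMUSG00000018899.16, chr11:53770014-53778374, plus strand), a transcription factor of the interferon response that favours Th1 over Th2 cells, was the most abundant of the 10 genes. It had 2250 and 1325 counts in WT and 1886 and 1751 in cKO, or 343 and 296 against 358 and 371 CPM. All cKO values lay above the WT values, but the WT libraries lay farther from each other than the genotype means did. Means were 319 ± 33.3 and 364 ± 9.01 CPM (SD, n = 2 each), with a log2 fold change of 0.19 ± 0.11 (SE) that ranged from 0.08 to 0.31 with a library left out. *Irf1* made up 72.2% and 66.7% of the summed CPM of the 10 genes in WT and 78.1% and 78.4% in cKO.

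The organic cation and carnitine transporter genes, *Slc22a5* and *Slc22a4*, are close relatives with unequal levels. *Slc22a5* (ENSMUSG00000018900.7, chr11:53864542-53891660, minus strand), the high-affinity carnitine transporter, had 92 and 73 counts in WT and 110 and 97 in cKO, or 14.0, 16.3, 20.9 and 20.5 CPM. The genotypes did not overlap, with means of 15.1 ± 1.61 and 20.7 ± 0.241 CPM (SD, n = 2 each) and a log2 fold change of 0.46 ± 0.18 (SE, 0.35 to 0.56 with a library left out), and the gene was not called. *Slc22a4* (ENSMUSG00000020334.6, chr11:53983123-54028090, minus strand), a transporter of ergothioneine, had 0 and 2 counts in WT and 0 and 0 in cKO, all at or under the floor, so no fold is given.

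*Pdlim4* (ENSMUSG00000020388.12, chr11:54054928-54069014, minus strand) encodes a PDZ and LIM domain protein, also called RIL, that binds alpha-actinin and the actin cytoskeleton. It had 245 and 203 counts in WT and 14 and 11 in cKO. In CPM the WT libraries were at 37.3 and 45.3 and the cKO libraries at 2.66 and 2.33, all above the floor and far apart by genotype. The mean was 41.3 ± 5.64 CPM in WT and 2.49 ± 0.232 CPM in cKO (SD, n = 2 each), a 16.3-fold lower level in cKO (95% interval 11.3 to 23.5) and a log2 fold change of -4.03 ± 0.23 (SE).

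With any one library left out, the log2 fold change of *Pdlim4* lay between -4.16 and -3.89. By size of fall it stood 15th of the 242 genes called lower, and 11th of the 225 on autosomes. Of the 100 autosomal genes called lower that had at least its WT level, 1 fell further. That gene was *Eps8l1*, with 320 and 159 counts in WT and 4 and 10 in cKO. Since the set was chosen on this contrast, nothing is read from these ranks. *Pdlim4* made up 7.86% and 10.2% of the summed CPM of the 10 genes in WT and 0.580% and 0.492% in cKO, while the sum itself was 475 and 443 CPM in WT and 458 and 473 CPM in cKO.

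**Figure D2:**
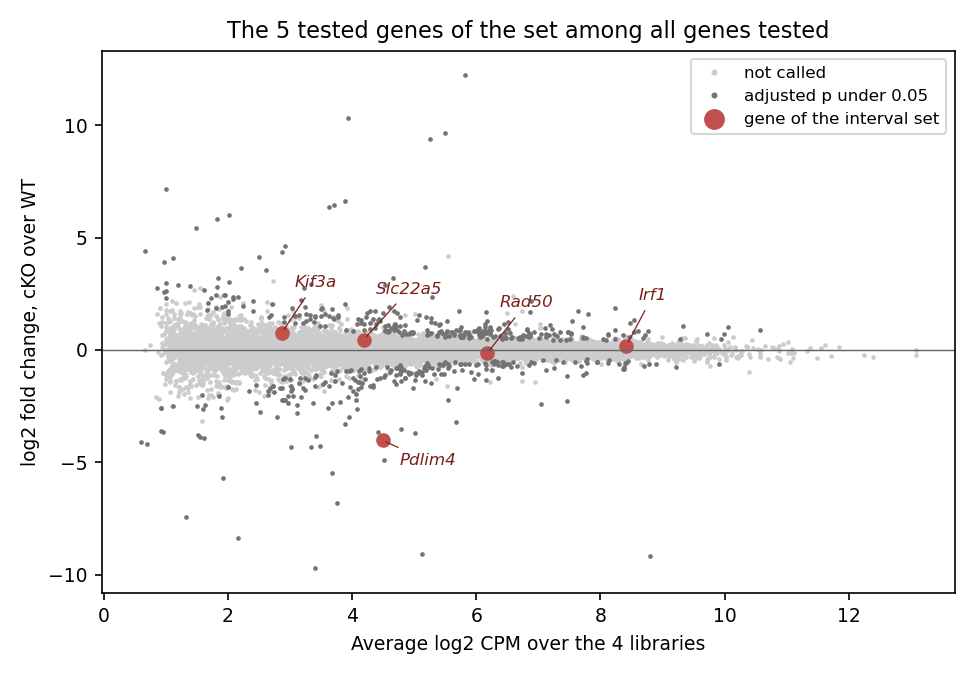
Log2 fold change of cKO over WT (vertical axis) against average log2 CPM over the 4 libraries (horizontal axis) for the 12403 genes tested, with called genes in dark grey and the 5 tested genes of the region in red. *Pdlim4*, whose difference was known when the set was chosen, lies at -4.03, below nearly all genes of its expression level. *Kif3a*, *Slc22a5*, *Irf1* and *Rad50* lie between -0.15 and 0.75.

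Other cell type markers moved with genotype beside *Pdlim4*. Of 4 regulatory T (Treg) cell markers, 2 rose, *Foxp3* and *Ctla4*. The summed level went from 294 to 374 CPM in WT to 692 to 912 CPM in cKO. *Foxp3* alone was at 131 CPM in WT and 474 CPM in cKO. The paper reports that loss of SATB1 derepresses *Foxp3* in conventional CD4+ T cells, so this sum does not measure how many Treg cells were present. The call of *Ctla4* was lost by DESeq2 and without WT 2 (edgeR adjusted p = 0.401), while DESeq2 called *Il2ra*, which was at 64.9 CPM in WT and 118 CPM in cKO (edgeR adjusted p = 0.0509). Of the CD8 T cell markers, *Cd8b1* fell from 47.0 to 24.9 CPM (log2 fold change -0.91 ± 0.17 SE, edgeR adjusted p = 0.0201) while *Cd8a*, given above, was not called, and their sum was 47.5 to 58.2 CPM in WT and 26.7 to 34.2 CPM in cKO. Of 4 naive T cell markers, 1 fell, *Ccr7*, with a sum of 3647 to 3904 CPM in WT and 2832 to 3674 CPM in cKO. Of 5 markers of activated or memory T cells, *Cd69* rose and *Ccl5* fell, and the sum was 607 to 677 CPM in WT and 793 to 797 CPM in cKO. Without WT 2 the calls of *Cd8b1*, *Ccr7* and *Cd69* were lost, at edgeR adjusted p-values of 0.156, 0.262 and 0.193.

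B cell and myeloid markers were low in all libraries, with higher sums in cKO. Of 8 B cell markers 3 were tested and 1 rose, *Pax5*, with sums of 14.0 to 15.2 CPM in WT and 23.5 to 57.3 CPM in cKO, and of 9 myeloid markers 8 were tested and 3 rose, *Lyz2*, *S100a9* and *Cybb*, with sums of 34.6 to 42.2 CPM in WT and 59.7 to 102 CPM in cKO. Among the myeloid markers that were not called, *Itgam* and *Cd68* had log2 fold changes of -0.85 and -0.29. The call of *Pax5* was lost without WT 2 (edgeR adjusted p = 0.138) or cKO 1, and that of *Cybb* by DESeq2 and without WT 1 or WT 2 (adjusted p up to 0.112). Of 4 NK cell markers 1 was tested and it was not called, with *Klra8* at 0 and sums of 1.56 to 3.96 CPM in WT and 0.635 to 2.85 CPM in cKO. The part of these cells in the *Pdlim4* result was not tested. In bulk RNA, fewer cells that express *Pdlim4* and less *Pdlim4* RNA per cell cannot be told apart.

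*P4ha2* (ENSMUSG00000018906.14, chr11:54100095-54131665, plus strand), a catalytic subunit of the enzyme that hydroxylates prolines in collagen, starts 31.1 kb from the start of *Pdlim4* and is transcribed away from it. It had 5 and 12 counts in WT and 4 and 1 in cKO, or 0.761, 2.68, 0.759 and 0.212 CPM. The WT 1 and cKO 1 libraries were level with each other, so the difference rested on WT 2 and cKO 2. The pooled counts of 17 and 5 gave a cKO to WT ratio of 0.325 with an exact interval of 0.0938 to 0.918 for counting error alone. In the fit without a low-count filter the log2 fold change was -1.65 ± 0.81 (SE), and it ranged from -2.79 to -0.62 with a library left out.

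Per kilobase of exonic length, which allows levels to be compared between genes, *Irf1* led in WT at 80.3 CPM per kb, followed by *Pdlim4* at 16.1 and *Rad50* at 14.1 CPM per kb. The WT libraries were at 14.6 and 17.7 CPM per kb for *Pdlim4* and at 13.9 and 14.2 for *Rad50*, so these neighbours in the order were close but did not overlap. Next came *Slc22a5* at 4.93 CPM per kb and *Kif3a* at 1.46 CPM per kb. The last 5 genes were all under 0.3 CPM per kb, with *P4ha2* at 0.276 and *Il4* at 0.273 not separable by their counts.

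In cKO the order per kilobase was *Irf1* at 91.6, *Rad50* at 12.7, *Slc22a5* at 6.74, *Kif3a* at 2.45 and *Pdlim4* at 0.974 CPM per kb. *Pdlim4* thus stood 2nd of the 10 genes in WT and 5th in cKO, and the CPM of *Rad50* was 2.01 and 1.68 times that of *Pdlim4* in WT and 25.6 and 29.4 times in cKO. Without length scaling *Pdlim4* stood 3rd in WT, behind *Rad50*.

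The stretches of 250 bases before the RefSeq start are shown for *Pdlim4*, the gene that differed between genotypes, for *Irf1*, which was high in all libraries, and for *Il4* and *Il13*, which were near or at 0. The sequences are from RefSeq on GRCm38.p6, 5′ to 3′ on the strand of each gene, at chr11:54069018-54069267 (minus), chr11:53769764-53770013 (plus), chr11:53618666-53618915 (minus, the more distal of 2 annotated *Il4* starts) and chr11:53634703-53634952 (minus). Capitals mark matches on either strand to 5 motifs, the TATA box TATAAA, the GC box GGGCGG, the GATA motif AGATAA, the STAT motif TTCNNNGAA and the AP-1 motif TGANTCA.
*Pdlim4*: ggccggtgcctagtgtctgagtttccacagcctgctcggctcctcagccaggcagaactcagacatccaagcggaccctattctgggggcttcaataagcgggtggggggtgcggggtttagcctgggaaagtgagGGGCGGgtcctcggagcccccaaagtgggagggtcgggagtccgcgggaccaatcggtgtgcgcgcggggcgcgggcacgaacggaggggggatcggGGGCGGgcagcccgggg
*Irf1*: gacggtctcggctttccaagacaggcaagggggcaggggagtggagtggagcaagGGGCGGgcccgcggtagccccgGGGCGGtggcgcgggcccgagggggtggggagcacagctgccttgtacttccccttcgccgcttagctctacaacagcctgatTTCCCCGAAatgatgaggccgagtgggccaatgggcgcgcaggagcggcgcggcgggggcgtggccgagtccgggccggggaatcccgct
*Il4*: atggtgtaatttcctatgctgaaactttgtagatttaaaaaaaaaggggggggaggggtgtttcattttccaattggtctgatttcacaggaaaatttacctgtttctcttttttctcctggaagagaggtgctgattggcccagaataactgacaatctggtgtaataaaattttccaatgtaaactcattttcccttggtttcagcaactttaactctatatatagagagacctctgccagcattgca
*Il13*: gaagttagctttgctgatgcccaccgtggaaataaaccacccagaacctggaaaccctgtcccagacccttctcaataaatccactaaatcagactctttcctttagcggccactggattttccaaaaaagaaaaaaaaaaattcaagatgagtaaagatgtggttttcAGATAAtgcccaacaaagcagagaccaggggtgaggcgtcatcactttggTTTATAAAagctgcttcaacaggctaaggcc

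Of the 10 genes, 9 had such a window, in 11 windows, and *Rad50* had none. The starts are those of RefSeq and need not be those of GENCODE M21, which gave the gene positions above. The windows of *P4ha2*, the second of *Irf1* and the first of *Il4* lie inside the GENCODE gene, and the bases after the RefSeq start were found in a GENCODE transcript of the gene for 9 of the 11 windows, those of *Slc22a5* and *Slc22a4* being the exceptions. The *Pdlim4* window held 21 CpG dinucleotides and was 30.8% A or T, with GGGCGG at 114 and 17 bases before the start. The *Irf1* window shown, the first of 2, held 25 CpG and was 28.8% A or T, with GGGCGG at 195 and 173 bases and TTCNNNGAA at 90 bases before the start. The other *Irf1* window held 35 CpG, was 25.6% A or T and had GGGCGG at 65 and 39 bases but no TTCNNNGAA. Over all 32851 windows of the table the medians were 6 CpG and 47.6% A or T, so these windows were rich in CpG and poor in A and T.

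The windows of the cytokine genes held fewer CpG than those of the other genes, between 0 and 3. A or T made up 62.4% of the distal *Il4* window, 56.8% of the *Il13* window and 62.4% of the *Il5* window, but 47.2% of the other *Il4* window, which lay near the median of all windows and held GGGCGG at 122 bases before the start. The *Il13* window held TATAAA at 29 bases and its reverse complement at 31 bases before the start, which overlap each other, and AGATAA at 81 bases. The windows of *Kif3a*, *Slc22a5*, *Slc22a4* and *P4ha2* held 15, 30, 26 and 21 CpG, within these limits of their starts. Of all windows, 12.4% held TATAAA, 32.7% GGGCGG, 9.99% AGATAA, 7.02% TTCNNNGAA and 6.75% TGANTCA. A match is a description of the letters and does not mark a binding site.

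The fall of *Pdlim4* was compared with genes around it. The interval from *Kif3a* to *P4ha2* spans 564.3 kb and holds 12 further annotated genes, of which 7 had no count in any library and 2 were tested, with 0 called. *Gm17334*, an antisense gene that overlaps 135 exonic bases of *Irf1*, had 779 and 509 counts in WT and 696 and 714 in cKO (log2 fold change 0.28 ± 0.11 SE, edgeR adjusted p = 0.199). The ratio of its counts to those of *Irf1* was 0.346 and 0.384 in WT and 0.369 and 0.408 in cKO. It lies within *Irf1* on the other strand and, with the strand setting not stated, its reads may belong to either gene. *Gm12216* had 50, 30, 46 and 32 counts in WT 1, WT 2, cKO 1 and cKO 2 (adjusted p = 0.873 by edgeR).

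Within 1 Mb on either side of the interval, 16 of 52 genes were tested and 0 were called by edgeR. Of the 16, 2 had an unadjusted p under 0.05, beside 19.1% of all genes tested, and 0 were called by DESeq2. The log2 fold changes of the 16 ran from -0.52 to 0.16 around a median of -0.19, against -4.03 for *Pdlim4*. Since the set was chosen with the difference of *Pdlim4* known, this contrast is a description only. On the *Kif3a* side the nearest tested genes were *Septin8*, *Uqcrq* and *Aff4*, at -0.34, -0.26 and 0.12 on the log2 scale. On the *P4ha2* side they were *Fnip1*, *Rapgef6* and *Cdc42se2*, at -0.16, 0.16 and 0.11. *Slc22a4*, 26.8 kb from *Pdlim4*, and *P4ha2*, 31.1 kb away, were too low to show whether they changed with it, and the nearest tested neighbours were *Slc22a5* at 163.3 kb and *Fnip1* at 369.2 kb.

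**Figure D3:**
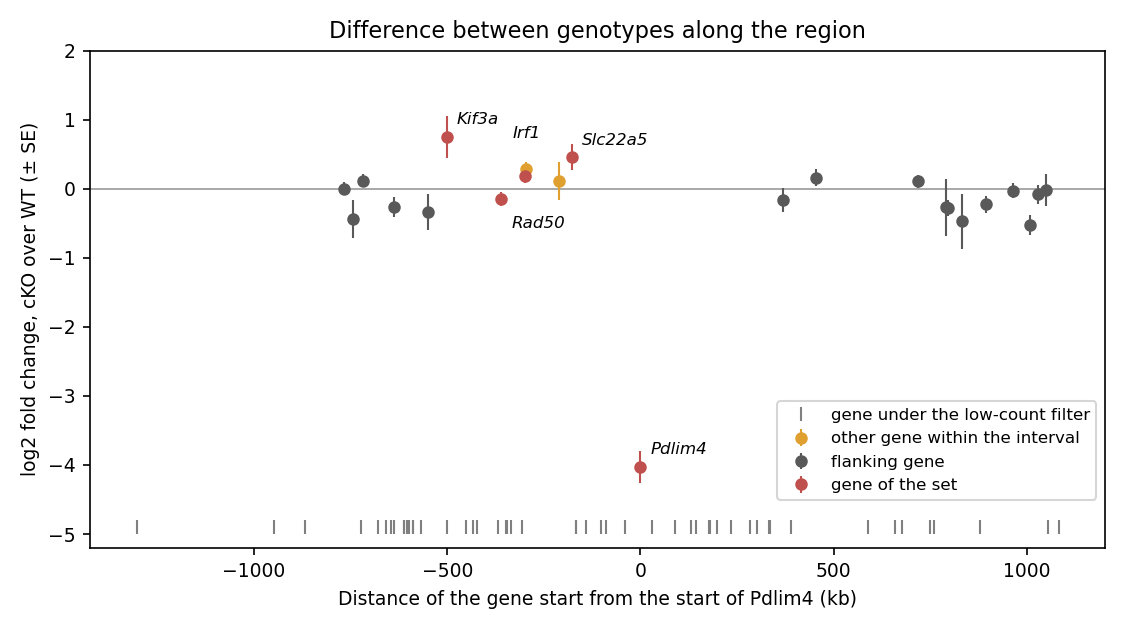
Log2 fold change of cKO over WT with its SE (vertical axis) against the distance of each gene's start from that of *Pdlim4* in kb (horizontal axis), for genes of the set, other genes of the interval and genes within 1 Mb on either side, with ticks at the bottom for genes under the low-count filter. *Pdlim4*, whose difference was known when the set was chosen, lies at -4.03, and the 16 flanking genes lie between -0.52 and 0.16.

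The tested genes most like *Pdlim4* were sought by the smallest distance between log2 CPM profiles over the 4 libraries, each centred on its WT mean, among 4000 genes whose mean log2 CPM was within 1 of it. They were *Slc28a2b* on chromosome 2, *Gzmb*, the gene of the cytotoxic granule protease granzyme B on chromosome 14, and *Gm15726* on chromosome X, at distances of 0.562, 0.936 and 1.16. *Slc28a2b* had 239 and 183 counts in WT and 15 and 15 in cKO. *Gzmb* had 409 and 242 counts in WT and 16 and 28 in cKO. With 4 libraries in 2 genotypes, any gene that fell by a like amount scores high by this measure.

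The regulators and partners of these genes were followed in 13 lists of 117 genes. Of these, 91 were tested, 30 had an unadjusted p under 0.05 and 5 were called by edgeR, 2 higher and 3 lower in cKO. The share called was 5.49%, beside 4.3% of all genes, and the share at an unadjusted p under 0.05 was 33%, beside 2370 of the 12403 genes tested (19.1%). The lists were chosen with results of these libraries known, and no test of the lists was made, so nothing is read from the difference between these shares. All counts at an unadjusted p under 0.05 given below stand against that 19.1%.

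Of 17 regulators that promote the Th2 programme, 16 were tested and 0 were called by edgeR, with 8 at an unadjusted p under 0.05. The median log2 fold change was 0.24, with 12 values positive and 4 negative. DESeq2 called 2, *Irf4* and *Ikzf1*, in opposite directions. *Irf4* was higher in cKO (log2 fold change 0.86 ± 0.21 SE, edgeR adjusted p = 0.0564). *Ikzf1* was lower, at 1213 CPM in WT and 877 CPM in cKO (-0.47 ± 0.12 SE, edgeR adjusted p = 0.0633). *Gata3*, the master regulator of Th2 cells, was at 92.6 and 82.1 CPM in WT and 117 and 123 CPM in cKO, without overlap but with an edgeR adjusted p of 0.0564. *Stat6*, which carries the IL-4 signal, was at 309 and 310 CPM in WT and 382 and 376 CPM in cKO (log2 fold change 0.29 ± 0.09 SE, edgeR adjusted p = 0.131). *Maf*, an activator of *Il4*, had a log2 fold change of 0.53 ± 0.14 (SE, edgeR adjusted p = 0.0673). The transcripts of these regulators were thus abundant in libraries in which the cytokine genes were at or under the floor.

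Of 12 opponents of the Th2 programme, 11 were tested, 2 fell and 1 rose. *Tbx21*, the gene of the Th1 factor T-bet, fell from 23.8 to 11.6 CPM (log2 fold change -1.05 ± 0.24 SE, edgeR adjusted p = 0.0494). It was not called by DESeq2, without TMM scaling, or without WT 1 or WT 2, with an adjusted p of up to 0.154 over the alternatives. *Eomes*, a T-box factor of cytotoxic cells, fell from 35.9 to 14.0 CPM (-1.38 ± 0.22, adjusted p = 0.0113) and kept its call in every alternative at the threshold of 0.05. *Bcl6*, the transcriptional repressor that directs follicular helper T cells, rose from 32.3 to 49.5 CPM (0.61 ± 0.13, adjusted p = 0.0361), and its call was lost by DESeq2 and without WT 1 or WT 2, with an adjusted p between 0.00589 and 0.324 over the alternatives.

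Of 15 genes of the receptors and signalling of IL-4, IL-13 and IL-5, 11 were tested and 1 rose. That was *Il4ra*, the shared receptor chain of IL-4 and IL-13, at 329 and 351 CPM in WT and 532 and 438 CPM in cKO (log2 fold change 0.51 ± 0.12 SE, edgeR adjusted p = 0.0490), whose call was lost without WT 1 or WT 2 (adjusted p up to 0.323). Of 15 surface and effector genes of Th2 cells, 8 were tested and 1 fell, *Ecm1*, which promotes the exit of Th2 cells from lymph nodes, from 67.3 to 43.9 CPM (-0.62 ± 0.12, adjusted p = 0.0270). Its call was lost by DESeq2 and without WT 1 or WT 2 (adjusted p up to 0.186). *Il9*, *Il6* and *Il24* of this list were at 0 in all libraries.

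In the 9 other lists 0 genes were called by edgeR, and DESeq2 called 2, *Kmt2a* of the chromatin factors and *Irf4* of the IRF family. Of 12 other T cell cytokines 5 were tested, with 2 at an unadjusted p under 0.05, and *Il3* was at 0 in all libraries. The 6 chromatin factors known at the locus, among them *Ctcf* and *Rad21*, had a median log2 fold change of 0.10 and 1 unadjusted p under 0.05. The partners of KIF3A in kinesin-2 had a median of 0.27 with 0 of 3 at an unadjusted p under 0.05, and those of RAD50, with *Atm*, a median of -0.08 with 1 of 3. The IRF family had a median of 0.28 with 4 of 8 at an unadjusted p under 0.05, and target genes of IRF1 a median of 0.08 with 0 of 7. The genes of carnitine handling had a median of 0.31 and the other subunits of collagen prolyl 4-hydroxylase of 0.23, each with 1 unadjusted p under 0.05.

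Other PDLIM genes did not share the size of the *Pdlim4* difference. Of 8 genes of the PDLIM family and the alpha-actinins, 6 were tested, 1 had an unadjusted p under 0.05 and the median log2 fold change was -0.06. *Pdlim1* was at 110 and 105 CPM in WT and 101 and 87.6 CPM in cKO, and *Pdlim2*, a brake on STAT4 and NF-kB in T cells, at 97.2 and 88.6 CPM in WT and 84.6 and 77.7 CPM in cKO. Their log2 fold changes were -0.18 and -0.20, against -4.03 for *Pdlim4*. The set was chosen with the *Pdlim4* difference known, so this too is a description only. *Pdlim5* and *Pdlim7* were at 0.22 and 0.39 on the log2 scale, and *Pdlim3* and *Ldb3* had no count in any library.

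**Figure D4:**
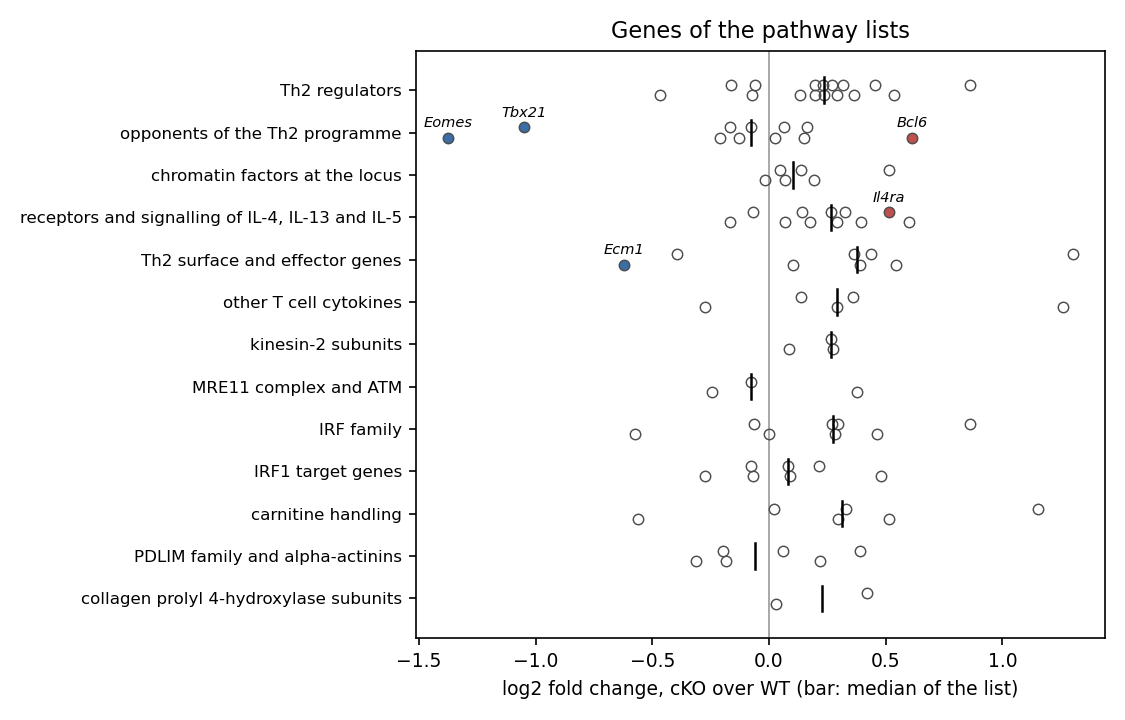
Log2 fold change of cKO over WT (horizontal axis) for each tested gene of the 13 lists (rows), with filled points for called genes, red if higher and blue if lower in cKO, open points for the rest and a black bar at the median of each list. The medians lie between -0.08 and 0.38, and *Eomes*, *Tbx21*, *Ecm1*, *Il4ra* and *Bcl6* are the 5 called genes.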

How the data were processed

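The authors aligned 50-base reads of NEBNext Ultra libraries to mm10 with HISAT2 and counted them per gene with HTSeq (2.1.0 and 0.11.1 in the submitters' processing notes), and deposited raw counts per gene symbol with no scaling. The annotation and strand setting are not given in the sources used here. HTSeq summary lines stayed out of all sums; of reads aligned to a single place, 59.4% to 64.5% overlapped no counted feature, which can include intronic and, if strand was used, antisense reads. Positions and exonic lengths were taken from GENCODE M21 on GRCm38 (mm10).

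Counts were analysed in R 4.3.3 with edgeR 4.0.16. Genes were kept by filterByExpr, scaled by TMM (factors 0.981 to 1.02), and tested with the two-sided quasi-likelihood F test on genotype, with Benjamini-Hochberg adjustment over all 12403 genes and a threshold of 0.05. The SE is the log2 fold change divided by the square root of F, and intervals are at the 0.95 level. The common biological coefficient of variation was 10.3%. An exact permutation test of 2 against 2 libraries cannot give a p under 0.333. Reads carried no molecular identifiers and so cannot be counted as separate molecules, and intervals and floors cover counting error only where so named.

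The 10 genes, the lists and the tests were chosen with earlier results of these data known. Named by rule were the 10 genes, *Satb1*, called genes of each list, *Cd4*, *Cd3e* and *Cd8a*, the 3 nearest tested genes on each side, and the 3 genes most like a called gene of the set; *Gata3*, *Stat6*, *Maf*, genes called by DESeq2 alone, *Eps8l1*, the PDLIM relatives, the sex-linked genes, *Itgam*, *Cd68* and genes listed at 0 were added after their values were seen. Alternatives were other scalings, filters, a stricter threshold, DESeq2 1.42.0, the replicate number as a block, leaving out each library, the prior count, length scaling and a correlation in place of distance. The procedure was tested on simulated data.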

Additional observations from a re-analysis of the deposited data

How the results depend on the processing

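The log2 fold changes of *Kif3a*, *Rad50*, *Irf1*, *Slc22a5* and *Pdlim4* kept their sign in the 11 alternatives run for each. That of *P4ha2* kept its sign in the 9 run for it. The genotypes did not overlap in any of these genes, so leaving out a library could not have reversed a sign, and nothing is read from this. None was computed for *Il4*, *Il13*, *Il5* and *Slc22a4*. The 533 genes called became 1367 with no low-count filter, 153 at an adjusted p under 0.01, 1165 with the replicate number as a block and 180 to 1783 with a library left out, 180 without WT 2, 1469 without cKO 1 and 1783 without cKO 2. The 5 genes called from the lists became 17, 0 and 15 in the same order and 1 to 31 with a library left out: 1 without WT 2, 22 without cKO 1 and 31 without cKO 2. The 0 called flanking genes became 1 without a filter, 1 (*Ccdc69*) with the replicate block and 0 to 2 with a library left out (*Ccdc69* and *Rapgef6* without cKO 2). The cause was not tested. Leaving out a library leaves 1 in its genotype, which is assumed to vary like the other 2. Same-numbered libraries deviated with a correlation of 0.0642, and the labels name no shared batch, so the replicate number was not taken as a pairing. With a prior count of 2 the log2 fold change of *Pdlim4* was -3.85. By correlation in place of distance, 0 of the 3 most similar genes were shared. Depth limits *Il4*, *Il13*, *Il5*, *Slc22a4* and *P4ha2*, and with 2 libraries a genotype no outlying library can be identified.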
